A study of Mus musculus with 26 samples.

Results

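T-box transcription factors share a DNA-binding domain, the T-box, and 10 of their genes were followed here in RNA-seq of mouse embryonic fibroblasts, heart and liver. They were chosen by gene symbol in the deposited FPKM table (*Tbx1*, *Tbx2*, *Tbx3*, *Tbx4*, *Tbx5*, *Tbx6*, *Tbx15*, *Tbx18*, *Tbx20* and *Eomes*), where all 10 were found among 52454 gene symbols. FPKM counts sequenced fragments relative to the length of the transcript and the size of the library. The 10 libraries comprise 1 library for each of 10 conditions, so differences could not be set against replicate error and no p-value is given. The 2i-MEFs were female F1 (129X1/SvJ and MSM/Ms) E14.5 fibroblasts at passage 1 (E14.5 is the embryonic day), and they gave 1 *Dnmt3a* KO and 1 *Dnmt3b* KO library. They grew from ES cells that had been kept in 2i/L medium, edited by CRISPR/Cas9 and injected into host blastocysts, and host cells were removed by G418 selection and by sorting for GFP. The MEFs were male C57BL6 E14.5 fibroblasts at passage 1, from embryos of *Dnmt3a* heterozygous KO parents (allele tm1Enl). Libraries labelled *Dnmt3a* WT and *Dnmt3a* KO were each made after culture with DMSO, the solvent control, or with GSK126, an inhibitor of the histone methyltransferase EZH2, at 10 µM for 2 days. Heart and liver were male C57BL6 E14.5 tissues, and both tissues of a genotype carry the same number in their titles. That number was read here as the embryo, which would make the WT pair 1 embryo and the pair labelled *Dnmt3a* KO another. Whether the cultures with DMSO and with GSK126 came from the same embryo was not given in the sources used here. WT 2i-MEFs were not analysed here.

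T-box factors bind a short DNA element and activate or repress nearby genes, and most act in the embryo, where they set up germ layers, limbs, the heart and the pharyngeal region. In the heart, TBX5 and TBX20 act with NKX2-5 and GATA4 in the working chambers, TBX2 and TBX3 repress the chamber programme in the conduction system and the atrioventricular canal, and TBX18 marks the epicardium and the sinus horns. In the limb, TBX5 belongs to the forelimb and TBX4 to the hindlimb, whereas TBX15 and TBX18 act in limb and body wall mesenchyme. DNMT3A and DNMT3B are the enzymes that methylate new CpG sites, and many developmental regulators of this kind have CpG-rich promoters.

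*Dnmt3a* was measured first, because it checks the labels. It followed them in 2i-MEFs, where the *Dnmt3a* KO library had 4.21 FPKM and the *Dnmt3b* KO library 23.9 FPKM, and in liver, where WT had 53.5 FPKM and KO 12.7 FPKM. *Dnmt3b* was at 0.817 FPKM in its own KO library of 2i-MEFs and at 1.81 FPKM in the other. *Dnmt3a* went against the labels in MEFs, with 26.1 (DMSO) and 19.3 FPKM (GSK126) in WT against 85.7 and 84.5 FPKM in the libraries labelled *Dnmt3a* KO, and in heart, with 55.0 against 125 FPKM. These are values of the whole gene, and the targeted exons were not measured separately here. The MEF, heart and liver libraries are therefore named by their label, and directions drawn between them are between labels. Marker genes followed the tissue labels. The summed FPKM of 6 cardiomyocyte markers was 25532 and 22602 in the heart libraries, against at most 69.4 elsewhere, and that of 5 hepatocyte markers was 17715 and 10701 in the liver libraries, against at most 32.7 elsewhere. WT liver stood apart from the other liver library in 6 skeletal muscle markers, whose summed FPKM was 56.6 against 1.51. The estimated depth ranged from 9167871 to 26198577 mapped reads, so that 1 read on 2000 bases of transcript equals 0.0606 to 0.0212 FPKM.

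Promoter sequences are shown for *Tbx1* and *Tbx4*, the members that differed most between fibroblast libraries, and for *Tbx20*, the leading member in heart. RefSeq windows of 300 bases (250 before the start and 50 from the start on, build GRCm38.p6) were found for 6 of the 10 genes (*Tbx1*, *Tbx4*, *Tbx6*, *Tbx18*, *Tbx20* and *Eomes*). Each is written 5′ to 3′ on the strand of the gene, with CpG dinucleotides in capitals.
*Tbx1*, chr16:18588850-18589149, minus strand: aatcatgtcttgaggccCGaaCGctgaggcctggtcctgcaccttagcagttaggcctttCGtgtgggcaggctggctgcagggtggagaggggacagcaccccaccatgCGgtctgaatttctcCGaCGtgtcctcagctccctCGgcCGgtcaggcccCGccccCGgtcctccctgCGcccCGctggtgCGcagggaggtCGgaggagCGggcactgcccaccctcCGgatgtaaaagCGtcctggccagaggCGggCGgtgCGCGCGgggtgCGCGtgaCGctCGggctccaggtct
*Tbx4*, chr11:85896515-85896814, plus strand: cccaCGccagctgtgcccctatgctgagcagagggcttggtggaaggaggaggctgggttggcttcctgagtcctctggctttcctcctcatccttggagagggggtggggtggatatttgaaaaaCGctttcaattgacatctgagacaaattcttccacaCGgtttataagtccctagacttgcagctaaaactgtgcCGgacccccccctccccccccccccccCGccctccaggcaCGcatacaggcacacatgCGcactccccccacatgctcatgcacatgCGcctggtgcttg
*Tbx20*, chr9:24774254-24774553, minus strand: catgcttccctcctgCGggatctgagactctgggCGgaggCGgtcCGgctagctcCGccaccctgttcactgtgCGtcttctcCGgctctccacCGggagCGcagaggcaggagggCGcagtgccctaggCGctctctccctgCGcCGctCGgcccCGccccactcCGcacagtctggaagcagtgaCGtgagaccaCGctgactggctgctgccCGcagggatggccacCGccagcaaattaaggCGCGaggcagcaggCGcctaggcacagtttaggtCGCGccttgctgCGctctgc
The windows of *Tbx1* and *Tbx20* each hold 26 CpG dinucleotides, a number that 16.9% of the 32851 windows of all genes reach, whereas that of *Tbx4* holds 8, near the median of 7 over all windows. A second *Tbx1* window, upstream of the one shown, holds 16. *Tbx18* has 15, *Eomes* 10 and *Tbx6* 7. The 8-base element AGGTGTGA, the half-site bound by T-box domains, was searched on both strands (TCACACCT on the other). It was found in 0 of the 7 windows of these genes and in 1.28% of all windows. The measured *Tbx1* row spans 18581713 to 18586969 on the minus strand of chromosome 16, and the RefSeq starts lie outside that span. The start of the *Tbx4* window lies inside the span of the measured gene.

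Different T-box genes led in the different samples. The summed FPKM of the 10 genes was 99.1 and 99.3 in WT MEFs with DMSO and GSK126, 74.7 and 59.1 in the corresponding MEFs labelled *Dnmt3a* KO, and 43.4 and 49.3 in *Dnmt3a* KO and *Dnmt3b* KO 2i-MEFs. It was 66.9 in WT and 80.1 in *Dnmt3a* KO-labelled heart, against 9.93 and 7.81 in the corresponding liver libraries. *Tbx15* was the highest member in all 6 fibroblast libraries, with 60.3% to 66.2% of the sum. *Tbx20* led in both heart libraries with 48.3% and 50.2%, and *Tbx3* led in both liver libraries with 54.6% and 51.9%. The number of members at 1 FPKM or more was 6 or 7 in fibroblasts, 5 in each heart library, 2 in WT liver and 3 in the liver labelled *Dnmt3a* KO. The share of all genes at that level was not counted per library. Close to the cut-off lay *Tbx5* in *Dnmt3a* KO 2i-MEFs (1.0 FPKM, counted) and *Tbx1* in WT MEFs with DMSO (0.988 FPKM, not counted). In these bulk samples, fewer cells of a type and less RNA per cell cannot be told apart.

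**Figure D1:**
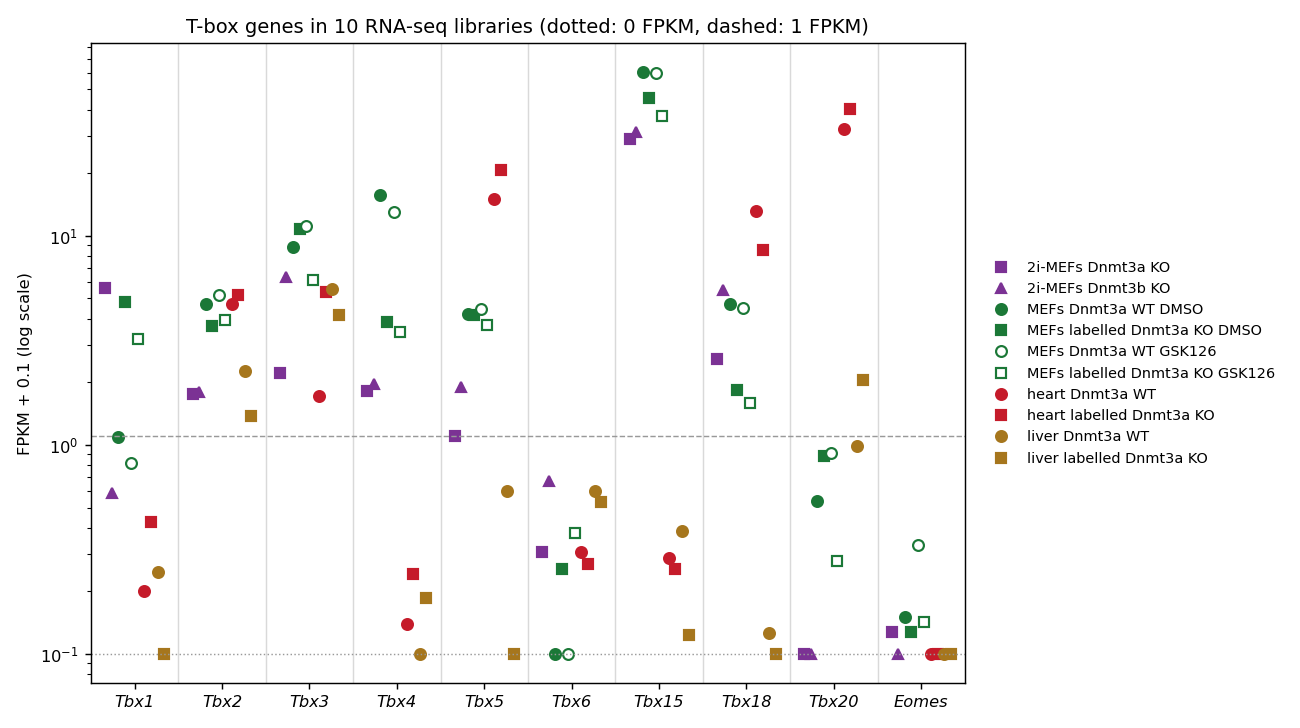
FPKM of each T-box gene in the 10 libraries, plotted as FPKM + 0.1 on a log axis with 1 point per library (colours: 2i-MEFs, MEFs, heart and liver; open symbols: GSK126). *Tbx15* lies between 28.8 and 60.2 FPKM in fibroblasts and at most at 0.287 FPKM in heart and liver, whereas *Tbx20* lies at 32.3 and 40.2 FPKM in heart and at most at 1.95 FPKM elsewhere.

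**Figure D2:**
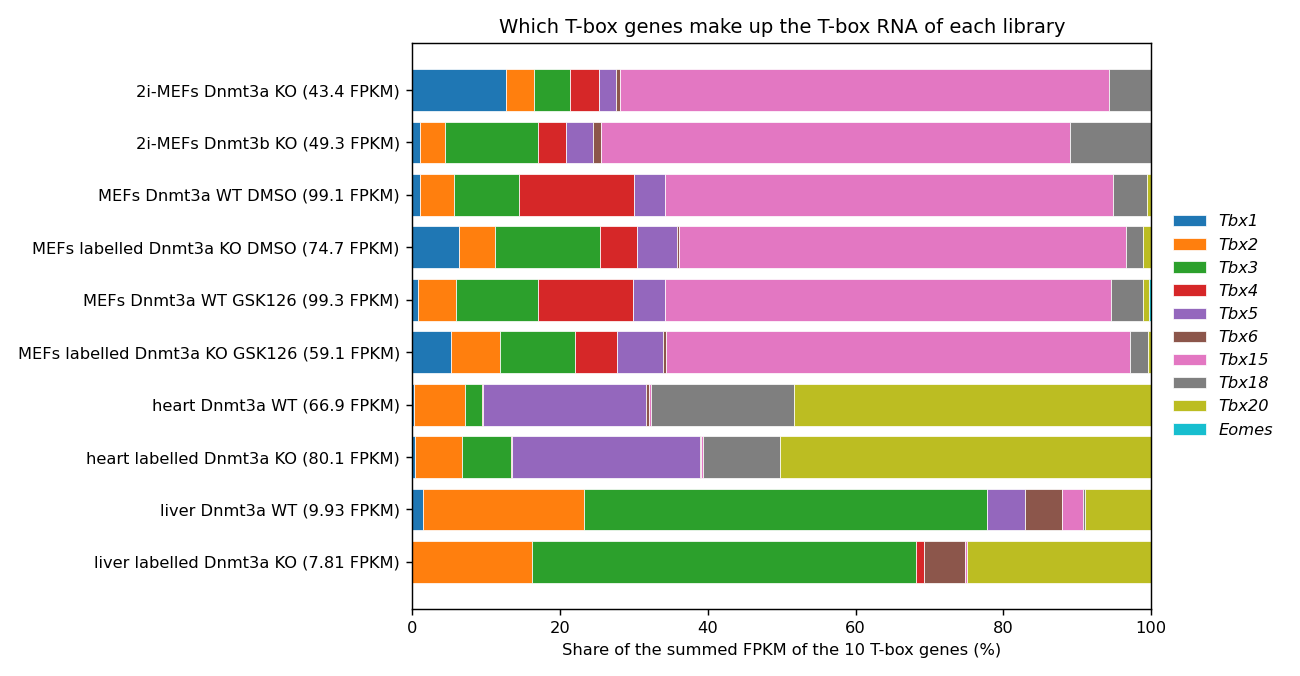
Share of each T-box gene in the summed FPKM of the 10 genes, in percent, with 1 bar per library and the sum in parentheses. *Tbx15* fills over 60% of every fibroblast bar, *Tbx20* close to 50% of the heart bars and *Tbx3* over 50% of the liver bars.

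Among the factors of the heart chambers, *Tbx20* (chromosome 9, 24718138 to 24774303, minus strand) was at 32.3 FPKM in WT heart, and the heart labelled *Dnmt3a* KO had 40.2 FPKM. It was at 0.888 and 1.95 FPKM in WT liver and the liver labelled *Dnmt3a* KO, between 0.177 and 0.813 FPKM in MEFs, and listed at 0 in both 2i-MEF libraries. Heart was thus above all other samples. By value the order below it was liver, MEFs and 2i-MEFs, but it rests on few reads. WT liver and WT MEFs with GSK126, the nearest libraries, were 1.09-fold apart and stand for 6 and 4 reads at the shortest coding transcript. The lowest MEF value stands for 1 read. *Tbx5* (chromosome 5, 119832668 to 119885219, plus strand) was at 14.8 FPKM in WT heart and 20.4 FPKM in the heart labelled *Dnmt3a* KO. It ranged from 3.64 to 4.34 FPKM in MEFs, was at 1.0 and 1.78 FPKM in *Dnmt3a* KO and *Dnmt3b* KO 2i-MEFs, and in liver was at 0.501 FPKM in WT and listed at 0 in the other library. Its 4 kinds of sample did not overlap, but the nearest values of liver and 2i-MEFs (0.501 and 1.0 FPKM) stand for 6 and 5 reads at the shortest coding transcript.

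*Tbx18* (chromosome 9, 87702800 to 87731260, minus strand), the epicardial factor, was at 13.0 FPKM in WT heart and 8.42 FPKM in the heart labelled *Dnmt3a* KO. It was at 2.46 and 5.39 FPKM in *Dnmt3a* KO and *Dnmt3b* KO 2i-MEFs, between 1.49 and 4.59 FPKM in MEFs, and at 0.0255 FPKM or listed at 0 in liver. The fibroblast groups overlapped, and both lay below heart and above liver. The summed FPKM of 5 epicardial and mesothelial markers was 111 in WT and 104 in the heart labelled *Dnmt3a* KO.

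The repressors *Tbx2* and *Tbx3* were the members at 1 FPKM or more in all 10 libraries. *Tbx2* (chromosome 11, 85832551 to 85841948, plus strand) was at 4.62 FPKM in WT heart and 5.07 FPKM in the heart labelled *Dnmt3a* KO, within the range of 3.58 to 5.11 FPKM in MEFs. It was at 1.66 and 1.69 FPKM in 2i-MEFs, within the range of 1.27 (liver labelled *Dnmt3a* KO) to 2.16 FPKM (WT liver). *Tbx3* (chromosome 5, 119670669 to 119684724, plus strand) ranged from 6.06 to 11 FPKM in MEFs. The other groups overlapped below or at this level, with 2.09 and 6.23 FPKM in *Dnmt3a* KO and *Dnmt3b* KO 2i-MEFs, 1.62 and 5.24 FPKM in heart (WT, then labelled *Dnmt3a* KO), and 5.42 and 4.06 FPKM in the corresponding liver libraries. The gene *Tbx3os1* overlaps *Tbx3* on the opposite strand, and because the strand setting used for counting was not given in the sources used here, reads of both cannot be told apart with certainty. The same holds for *Tbx15*, *Tbx18* and *Eomes*, which overlap *Gm43120*, *D030062O11Rik* and *Gm33460* on the opposite strand. *Tbx3os1* was highest in WT MEFs with DMSO (2.88 FPKM) and WT heart (2.03 FPKM).

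The limb and mesenchyme factors *Tbx15* and *Tbx4* were highest in fibroblasts. *Tbx15* (chromosome 3, 99240381 to 99354259, plus strand) was at 60.2 FPKM in WT MEFs with DMSO, 59.9 FPKM in WT MEFs with GSK126, 45.2 and 37.1 FPKM in the corresponding MEFs labelled *Dnmt3a* KO, and 28.8 and 31.3 FPKM in *Dnmt3a* KO and *Dnmt3b* KO 2i-MEFs. In heart and liver it was between 0.0231 and 0.287 FPKM. *Tbx4* (chromosome 11, 85886422 to 85916097, plus strand), the hindlimb factor, was at 15.5 and 12.8 FPKM in WT MEFs with DMSO and GSK126, at 3.75 and 3.35 FPKM in the corresponding MEFs labelled *Dnmt3a* KO, and at 1.70 and 1.86 FPKM in 2i-MEFs. It was at most at 0.141 FPKM in heart and liver.

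*Tbx1* (chromosome 16), a factor of the pharyngeal region whose loss in the human deletion syndrome of that region affects the heart outflow tract, differed within each kind of fibroblast. The *Dnmt3a* KO 2i-MEFs had 5.51 FPKM and the *Dnmt3b* KO 2i-MEFs 0.484 FPKM. In MEFs it was at 4.73 and 3.12 FPKM in the libraries labelled *Dnmt3a* KO with DMSO and GSK126, against 0.988 and 0.721 FPKM in WT. It was at most at 0.329 FPKM in heart and liver. *Tbx6* (chromosome 7, 126781483 to 126785560, plus strand), a factor of paraxial mesoderm, was at most at 0.571 FPKM in any library. *Eomes* (chromosome 9, 118478212 to 118486132, plus strand), a factor of gastrulation and trophoblast, was at most at 0.232 FPKM and listed at 0 in 5 libraries. These last 2 genes had a mean under 1 FPKM and were left out of the counts below, which cover 8 of the 10 members and 14150 genes in all.

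Kinds of sample were compared by asking whether the lowest library of one kind was at least 2-fold above the highest of the other on the scale of FPKM + 1. A gene under 1 FPKM in every library of a comparison cannot reach 2-fold on this scale, also where it passed the filter on the mean through other samples. Of all counted genes, 88.0% to 97.8% could reach it, depending on the comparison. Between heart and liver, 5 of the 8 members could (not *Tbx1*, *Tbx4* and *Tbx15*), and 3 of 8 members were higher in heart, against 15.8% of all genes, and 0 of 8 were lower, against 13.8%. They were *Tbx20*, with a smallest log2 ratio between any heart and any liver library of 3.50, *Tbx5* (3.40) and *Tbx18* (3.20). Of 9 partner factors of T-box proteins in the heart, 8 passed 2-fold in the same direction. Among them, *Nkx2-5* was at 179 and 182 FPKM in heart (WT, then labelled *Dnmt3a* KO) and at most at 0.117 FPKM in liver. Of 12 counted genes known to be regulated by T-box factors, 8 were higher in heart, among them *Nppa*, which encodes atrial natriuretic peptide (350 and 304 FPKM, against at most 0.175 FPKM in liver). The lists of partner and regulated genes were chosen as heart genes in part, so their direction here is a description.

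Between MEFs and heart, *Tbx15* (smallest log2 ratio 5.0) and *Tbx4* (1.93) were higher in every MEF library, which is 2 of 8 members against 11.2% of all genes. *Tbx20* and *Tbx5* were lower, with smallest log2 ratios of 4.20 and 1.57 in favour of heart, which is 2 of 8 against 9.72%. Between MEFs and liver, 4 of 8 members were higher in MEFs, against 17.7% of all genes, and 0 of 8 were lower, against 15.3%. These were *Tbx15* (4.89), *Tbx4* (2.00), *Tbx5* (1.63) and *Tbx18* (1.28). Between 2i-MEFs and MEFs, 0 of 8 members were higher (1.51% of all genes) and 0 of 8 were lower (2.88%). *Tbx20*, under 1 FPKM in all of these libraries, could not pass here. Nor could it between MEFs and liver, where its lowest libraries were at 0.177 and 0.888 FPKM. *Tbx1* could not pass between any of these kinds of sample, since its lowest library was under 1 FPKM in each. Of the lists, 4 of 14 limb patterning genes and 2 of 12 regulated genes were lower in 2i-MEFs, and 0 were higher. By value, *Tbx2*, *Tbx4*, *Tbx5* and *Tbx15* were lower in both 2i-MEF libraries than in all 4 MEF libraries. In FPKM, the nearest libraries differed by 1.19-fold (*Tbx15*) to 2.12-fold (*Tbx2*), under 2-fold for each on the scale of FPKM + 1. *Tbx20* was listed at 0 in 2i-MEFs. The share of all genes that separated in this way was not counted, so the separation is not read as a trait of these members. Strain, sex, origin, genotype and culture differ together between 2i-MEFs and MEFs and cannot be told apart, since both 2i-MEF libraries are KO, whereas the MEFs include WT and were all cultured with DMSO or GSK126.

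In 2i-MEFs, *Tbx1* was higher and *Tbx3* was lower in *Dnmt3a* KO than in *Dnmt3b* KO. The *Tbx1* value of 5.51 against 0.484 FPKM is an 11.4-fold difference with a log2 ratio of 2.13. The measured span of *Tbx1* differs from that in GENCODE M21, which gave the transcript lengths, so its reads and intervals are approximate. Its 95% counting interval of 2.50 to 87.9-fold is wide, since at the shortest annotated coding transcript the values stand for 24 and 2 reads. This interval and those below are exact binomial intervals of the FPKM ratio and cover counting error only. *Tbx3* was at 2.09 against 6.23 FPKM, 0.336 of the *Dnmt3b* KO level (interval 0.267 to 0.425, log2 ratio -1.22). *Tbx18* was at 0.457 of that level (0.365 to 0.576), which on the scale of FPKM + 1 fell short of 2-fold (log2 ratio -0.88). In all, 1 of 8 members was at least 2-fold higher, against 4.23% of all genes, and 1 of 8 was at least 2-fold lower, against 2.51%. *Tbx20*, listed at 0 in both, could not pass. The interval of *Tbx15*, *Tbx2*, *Tbx4* and *Tbx5* each included 1. Among the lists, 0 of 9 partner factors passed 2-fold, but 5 of them were under 1 FPKM in both libraries and could not. Of 12 genes regulated by T-box factors, 6 could pass and 1 did, *Bmp4*, a signal of the limb bud and outflow tract (82.4 against 33.3 FPKM). Of 14 limb patterning genes, 11 could pass, of which *Msx1* was higher (4.54 against 0.691 FPKM) and *Shox2* lower (5.17 against 26.0 FPKM).

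In MEFs with DMSO, *Tbx1* was higher and *Tbx4* and *Tbx18* were lower in the library labelled *Dnmt3a* KO. *Tbx4* was at 3.75 against 15.5 FPKM, 0.243 of the WT level (interval 0.210 to 0.279, log2 ratio -1.79). *Tbx18* was at 1.72 against 4.59 FPKM, 0.374 of the WT level (0.313 to 0.445, log2 ratio -1.04). *Tbx1* was at 4.73 against 0.988 FPKM, 4.79-fold higher (2.17 to 12.6, log2 ratio 1.53). The count was 1 of 8 members higher, against 3.27% of all genes, and 2 of 8 lower, against 1.54%. *Tbx5*, the forelimb counterpart of *Tbx4*, was at 4.06 against 4.10 FPKM, 0.991 of the WT level with an interval of 0.625 to 1.59. *Tbx15* was at 0.752 of the WT level (0.594 to 0.948). Of 9 partner factors, *Mef2c*, a muscle and heart regulator, was higher (13.4 against 6.16 FPKM) and *Isl1*, a factor of heart and hindlimb progenitors, was lower (1.16 against 5.78 FPKM), and 3 could not pass. Of 12 genes regulated by T-box factors, 8 could pass 2-fold and 0 did. *Tbx20* was the 1 member that could not pass, with DMSO as with GSK126.

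With GSK126, the same 3 genes passed 2-fold. *Tbx4* was at 3.35 against 12.8 FPKM (log2 ratio -1.67), *Tbx18* at 1.49 against 4.39 FPKM (-1.12) and *Tbx1* at 3.12 against 0.721 FPKM (1.26). The count was again 1 of 8 higher, against 2.12%, and 2 of 8 lower, against 2.14%. *Tbx3* was at 6.06 against 11 FPKM, 0.551 of the WT level (0.497 to 0.611), and *Tbx15* at 37.1 against 59.9 FPKM, 0.620 of it (0.479 to 0.799), both less than 2-fold lower. Of the partner factors, *Gata4* was higher (1.97 against 0.281 FPKM) and *Isl1* lower (1.19 against 5.70 FPKM), and again 0 of the 8 regulated genes that could pass did. Each MEF library enters 2 of the 4 MEF comparisons, which are therefore set side by side and do not support each other.

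**Figure D3:**
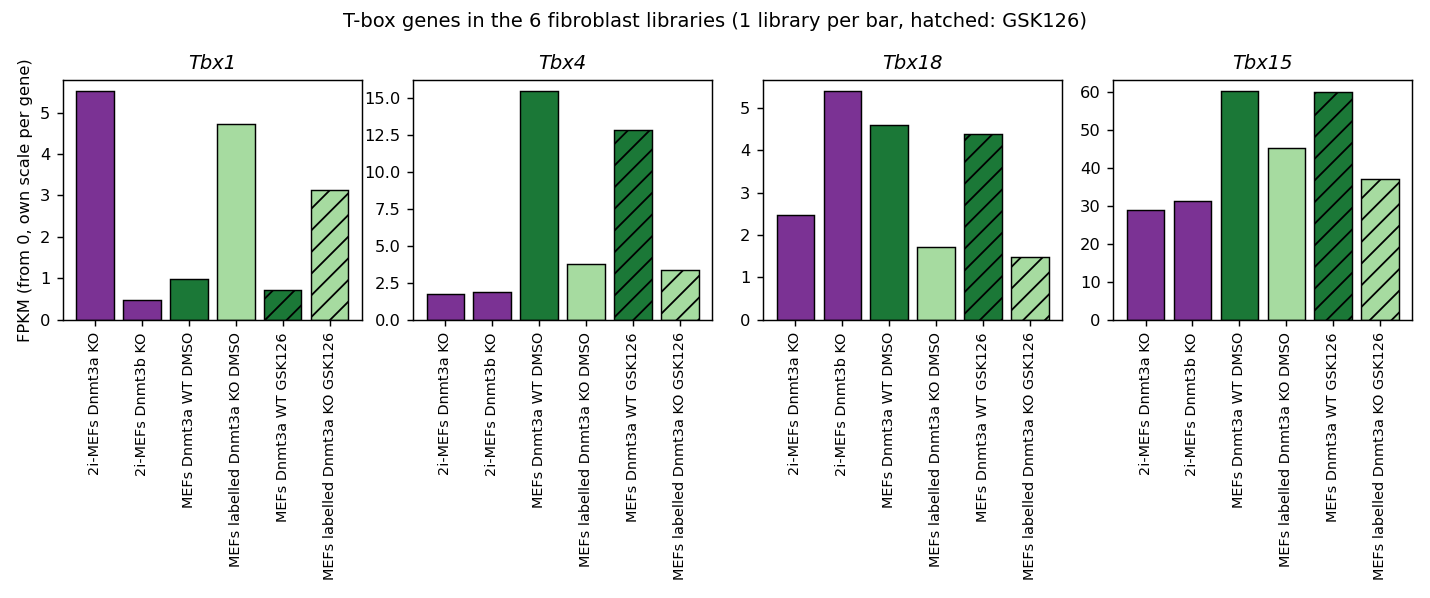
FPKM of *Tbx1*, *Tbx4*, *Tbx18* and *Tbx15* in the 6 fibroblast libraries, 1 bar per library from 0 with a scale for each gene (purple: 2i-MEFs, dark green: WT MEFs, light green: MEFs labelled *Dnmt3a* KO, hatched: GSK126). *Tbx1* is at 3.12 FPKM or more in the 3 libraries labelled *Dnmt3a* KO and at 0.988 FPKM or less in the other 3, and *Tbx4* is at 12.8 FPKM or more in WT MEFs alone.

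Other limb patterning genes were followed beside *Tbx4*. Of 14 counted genes on that list, 6 were at least 2-fold lower (1.54% of all genes) and 0 higher (3.27%) in the MEFs labelled *Dnmt3a* KO with DMSO, and their median log2 ratio was -0.73, against 0.02 over all counted genes. With GSK126, 3 were lower (2.14%) and 0 higher (2.12%), with a median of -0.65 against 0. *Pitx1*, the homeobox gene that acts upstream of *Tbx4* in the hindlimb, was at 10.9 against 50.5 FPKM with DMSO and at 14.4 against 32.5 FPKM with GSK126. *Hoxd13*, a gene of the distal limb, was at 0.222 against 3.90 FPKM and at 0.166 against 4.12 FPKM. *Shox2*, a gene of the proximal limb, was at 8.72 against 39.4 FPKM with DMSO and at 21.5 against 34.1 FPKM with GSK126. The broadly mesenchymal *Prrx1* was at 126 against 119 FPKM with DMSO and at 106 against 113 FPKM with GSK126. Some of these values were known when the list was written. Markers of other cells differed as well. The summed FPKM of the 5 epicardial and mesothelial markers was 92.1 in MEFs labelled *Dnmt3a* KO and 45.6 in WT with DMSO, and 221 against 55.9 with GSK126, with *Tcf21* listed at 0 in both WT libraries. That of 6 fibroblast markers was 9252 against 11864 with DMSO and 5983 against 8844 with GSK126, and that of 6 skeletal muscle markers was 56.8 against 19.7 and 33.4 against 20.9. The part of cell composition in the *Tbx* values was not tested.

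**Figure D4:**
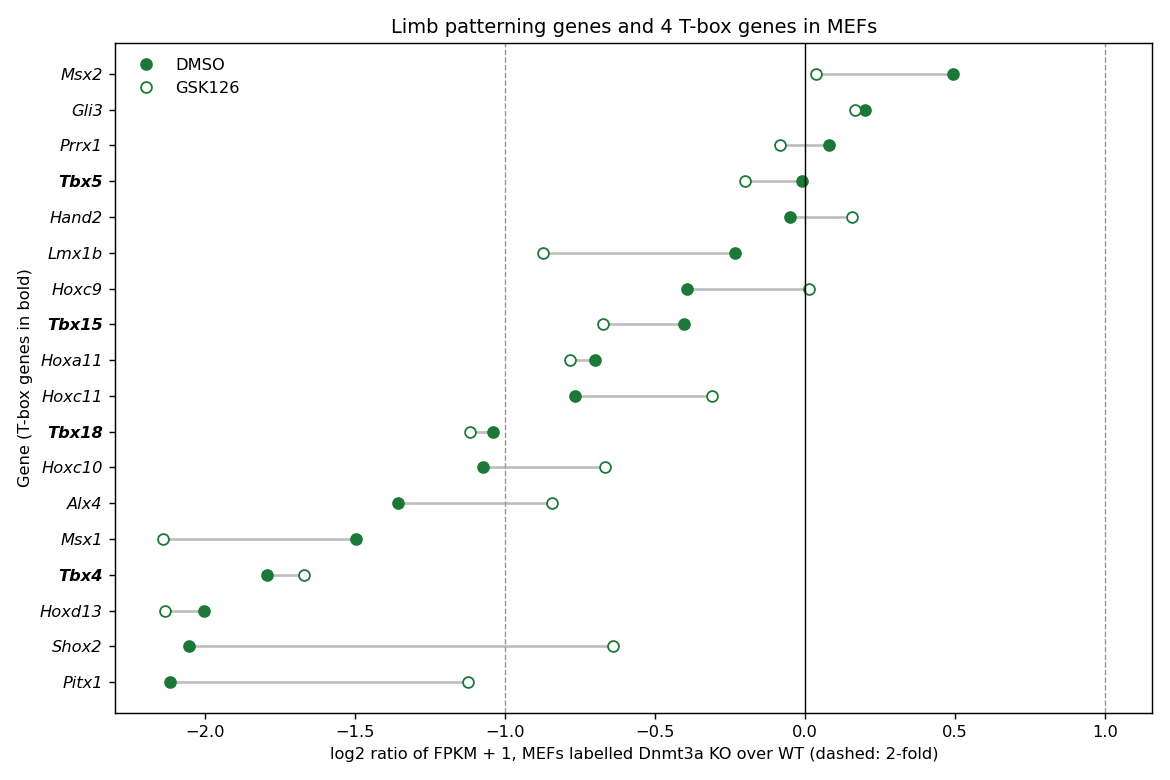
Log2 ratio of FPKM + 1 of MEFs labelled *Dnmt3a* KO over WT for the 14 counted limb patterning genes and for *Tbx4*, *Tbx5*, *Tbx15* and *Tbx18* (filled: DMSO, open: GSK126, dashed lines: 2-fold, 1 library per condition). *Tbx4* lies at -1.79 and -1.67, *Hoxd13* and *Msx1* are past 2-fold in both, and *Pitx1* and *Shox2* go from -2.12 and -2.05 with DMSO to -1.13 and -0.64 with GSK126, whereas *Tbx5* lies at -0.01 and -0.20.

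In heart, *Tbx3* alone among the counted members passed 2-fold, at 1.62 FPKM in WT against 5.24 FPKM under the label *Dnmt3a* KO. This is a 3.25-fold difference (interval 2.67 to 3.97, log2 ratio 1.26). The count was 1 of 8 members higher, against 1.38% of all genes, and 0 of 8 lower, against 1.2%. *Tbx1*, *Tbx4* and *Tbx15* were under 1 FPKM in both libraries and could not pass. *Tbx3os1* was at 2.03 FPKM in WT heart and listed at 0 in the other library, the opposite direction. *Tbx18* was at 0.647 of the WT level (0.585 to 0.717, log2 ratio -0.57) and *Tbx5* at 1.38-fold of it (1.07 to 1.75, log2 ratio 0.43). The intervals of *Tbx2* and *Tbx20* included 1. Of the 9 partner factors 0 differed 2-fold, and of the 12 genes regulated by T-box factors 10 could and 1 did, the Notch ligand *Dll1* (3.42 against 7.98 FPKM). The summed FPKM of 6 skeletal muscle markers, 3 of them at 1 FPKM or more, was 677 under the label *Dnmt3a* KO against 896 in WT, that of 5 hepatocyte markers was 7.08 against 32.7, and that of 5 erythroid markers was 14289 against 19834. Their part in the *Tbx3* value was not tested.

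In liver, 0 of 8 members were at least 2-fold higher in the library labelled *Dnmt3a* KO, against 0.89% of all genes, and 0 of 8 were lower, against 1.72%. Only *Tbx2*, *Tbx3* and *Tbx20* reached 1 FPKM in a liver library, so the other 5 could not pass. The largest difference upward was *Tbx20*, at 1.95 against 0.888 FPKM, whose interval of 0.781 to 7.06-fold included 1. *Tbx2* was at 1.27 against 2.16 FPKM, 0.588 of the WT level (0.461 to 0.744), and *Tbx3* at 4.06 against 5.42 FPKM, 0.749 of it (0.664 to 0.844). *Tbx1* and *Tbx5* were listed at 0 in the liver labelled *Dnmt3a* KO and were at 0.145 and 0.501 FPKM in WT. Of 9 partner factors, 2 were lower, *Hand1* (0.435 against 1.98 FPKM) and *Mef2c* (6.70 against 14.9 FPKM), while 2 could not pass. Of 12 regulated genes, 6 could pass 2-fold and 0 did. WT liver, with the higher skeletal muscle markers given above, also had the higher summed FPKM of 6 cardiomyocyte markers (69.4 against 16.2), of 6 fibroblast markers (486 against 246) and of 5 hepatocyte markers (17715 against 10701). That of 5 erythroid markers was lower in WT liver (56203 against 84494), and that of 4 endothelial markers was 49.4 against 45.1. The part of these markers in the *Tbx* values of liver was not tested.

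Between GSK126 and DMSO, all 8 counted members stayed within 2-fold on the scale of FPKM + 1. In WT MEFs, 0 of 8 were higher (1.46% of all genes) and 0 of 8 lower (1.07%), where *Tbx1* and *Tbx20* could not pass, with log2 ratios from -0.25 for *Tbx4* to 0.33 for *Tbx20*. In MEFs labelled *Dnmt3a* KO, 0 of 8 were higher (1.41%) and 0 of 8 lower (2.37%), where *Tbx20* could not pass. The largest difference there was *Tbx3*, at 6.06 FPKM with GSK126 and 10.7 FPKM with DMSO, 0.567 of the DMSO level (interval 0.513 to 0.626, log2 ratio -0.73), whereas in WT it was at 11 and 8.74 FPKM, 1.26-fold higher (1.14 to 1.39, log2 ratio 0.30). Between the same libraries labelled *Dnmt3a* KO, the summed FPKM of epicardial and mesothelial markers was 221 with GSK126 and 92.1 with DMSO, that of fibroblast markers 5983 and 9252, and that of skeletal muscle markers 33.4 and 56.8. Their part in the *Tbx3* value was not tested. *Tbx15* in WT was at 59.9 and 60.2 FPKM, 0.995 of the DMSO level with an interval of 0.787 to 1.25. *Tbx20* was at 0.177 against 0.782 FPKM in MEFs labelled *Dnmt3a* KO, where at the shortest transcript the values stand for 1 and 5 reads and the interval included 1. The lists held 0 partner factors and 0 regulated genes past 2-fold in either genotype, where 5 of 9 (WT) and 7 of 9 partner factors and 8 of 12 regulated genes could pass. Of the limb patterning genes *Shox2* was higher with GSK126 in MEFs labelled *Dnmt3a* KO (21.5 against 8.72 FPKM).

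**Figure D5:**
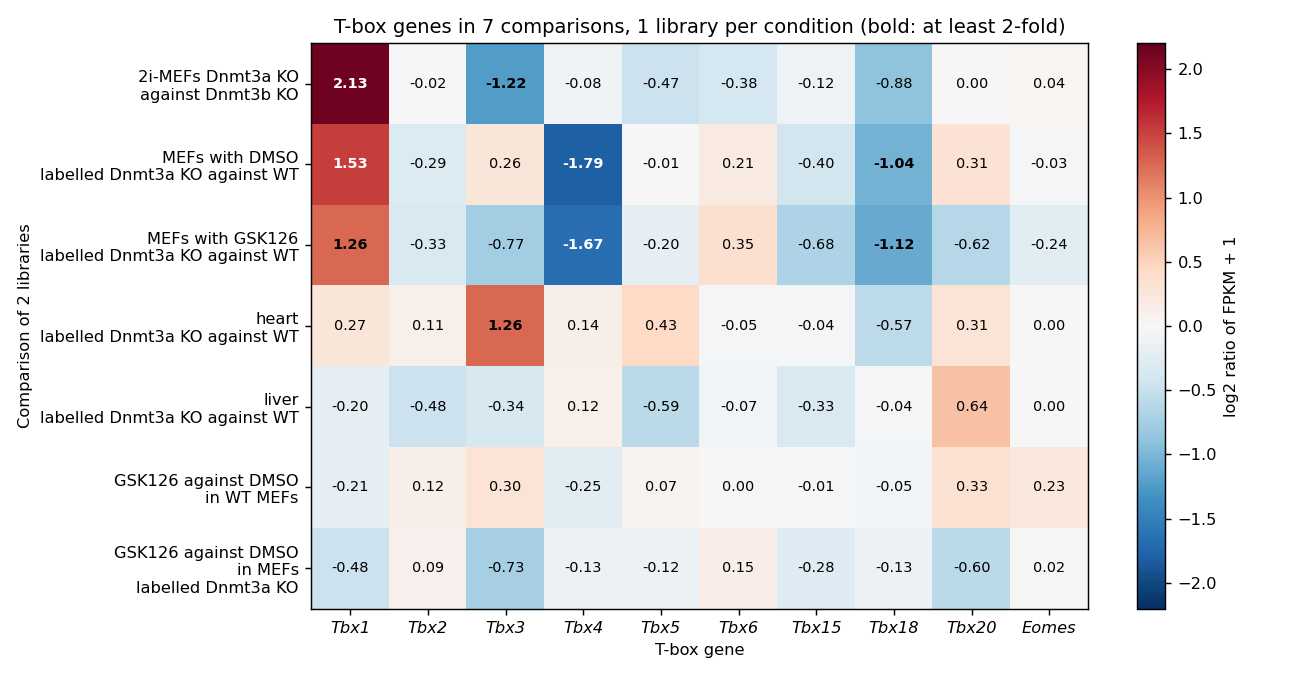
Log2 ratio of FPKM + 1 for the 10 T-box genes (columns) in the 7 comparisons of 2 libraries (rows), with the value in each cell and bold figures for 2-fold or more. *Tbx1* reaches 2.13, 1.53 and 1.26 in the upper 3 rows, *Tbx4* -1.79 and -1.67 in MEFs, and both GSK126 rows hold no bold value.

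Among 7 further mouse T-box genes, *Mga*, whose protein also carries a MAX-binding domain, had a mean over 1 FPKM, at 10.1 to 15.8 FPKM in all 10 libraries. *Tbx10* was at 0.677 and 0.961 FPKM in WT liver and the liver labelled *Dnmt3a* KO and listed at 0 elsewhere. The genes most like each member were found by Pearson's r of log2(FPKM + 1) over the 10 libraries among 14149 other genes. The libraries fall into a few kinds of sample, so r is a measure of likeness only. The nearest gene to *Tbx15* was *Pcdh19* (r = 0.999), and 1225 genes had an r of at least 0.9 with it. *Tbx20* was nearest to *Cox7a1*, a subunit of the respiratory chain in muscle (0.991), with 571 such genes. *Tbx4* was nearest to *Cxcl14* (0.987), *Pitx1* (0.983) and *Alx4* (0.983), with 156 such genes. *Tbx1* was nearest to *Nkx3-2* (0.982), *Gcnt2* (0.975) and *Foxd1* (0.938) and had 12 such genes. *Nkx3-2*, a homeobox gene of the axial skeleton, was at 4.10 FPKM in *Dnmt3a* KO 2i-MEFs, 4.11 FPKM in both MEF libraries labelled *Dnmt3a* KO and at most at 0.806 FPKM in the others. *Tbx3* had no such gene, its nearest being *AC116726.2* (0.883). *Tbx2*, *Tbx5* and *Tbx18* were nearest to *Dgcr6* (0.974), *Nfatc1* (0.982) and *Bcl2* (0.974).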

How the data were processed

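RNA-seq libraries were prepared by the authors with the TruSeq Stranded mRNA kit and sequenced as single reads of 75 bases. The authors deposited FPKM values made by cufflinks 2.2.1, with no counts. These rest on unique alignments to mm10 with a MAPQ of at least 20. The aligner was tophat 2.1.1, run with Bowtie2 2.3.2 and GENCODE M15 on reads that cutadapt 1.15 had trimmed. The submitters' processing notes name cutadapt 1.9.1, TopHat2 2.1.0 and Bowtie2 2.2.5 instead. Rows of the same symbol were summed. Ratios were calculated as log2 of FPKM + 1, which understates the change of weakly expressed genes, and called at 2-fold among genes whose mean over the 10 libraries reached 1 FPKM. Depth was recovered from low FPKM values of genes with 1 transcript of at least 1500 bases, assuming fragments of 200 bases, and 97.9% to 99.0% of these values fell on whole reads. The method was tested on simulated data. The 95% intervals used reads at the shortest coding transcript of GENCODE M21, which gives the widest interval. Groups came from the sample labels. The 2 libraries of 2i-MEFs are titled as MEFs, and were assigned by their source name, which gives 2i-MEFs, with their strain and sex labels. All 10 members, up to 3 genes per list and comparison, and the 3 genes most like each member with at least 5 FPKM were eligible to be named; *Prrx1*, *Tcf21* and *Tbx3os1* are also named. The members and lists were chosen with earlier results of these data known. Alternatives were a pseudocount of 0.1, centring or scaling on the median, no filter, a 1.5-fold threshold and WT libraries alone. Added after seeing the data were a single liver library and pairing of heart and liver by the number in their titles. The 16 methylation samples were not analysed here. Python 3.11.15, numpy 2.4.6, pandas 2.3.3, scipy 1.17.1 and matplotlib 3.10.9 were used.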

Additional observations from a re-analysis of the deposited data

Results flagged for a closer look

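For *Tbx3*, the library labelled *Dnmt3a* KO and its WT counterpart differed in opposite directions in MEFs with GSK126 (log2 ratio -0.77) and in heart (1.26). With DMSO the MEF pair was at 0.26, the direction of heart, and the liver pair was at -0.34, the direction of MEFs with GSK126. For *Tbx20* they did so in MEFs with GSK126 (-0.62) and in liver (0.64), where the counting intervals of both ratios include 1. With DMSO the *Tbx20* ratio was 0.31, the direction of liver, and its interval includes 1 too. With 1 library per condition, the difference between these effects was not tested.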

How the results depend on the processing

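Of 100 counts of members under an alternative, 87 stayed within 1.5 times the reported count, and of 140 log2 ratios, 127 kept their side of 2-fold, and 0 of those past 2-fold changed sign. The 22 counts with no filter could not move, since they add only *Tbx6* and *Eomes*, which were under 1 FPKM in every library. With a pseudocount of 0.1, counts moved to 2 lower in 2i-MEFs (with *Tbx18*), 2 higher in heart (with *Tbx1*), 1 higher (*Tbx20*) and 3 lower (*Tbx1*, *Tbx5* and *Tbx15*) in liver, 1 lower (*Tbx20*) for GSK126 in MEFs labelled *Dnmt3a* KO, and 2 lower (*Tbx2* and *Tbx20*) for 2i-MEFs against MEFs. With a 1.5-fold threshold, they moved to 2 lower in *Dnmt3a* KO 2i-MEFs, 5 lower in MEFs with GSK126, 1 higher and 1 lower in liver, 2 lower for GSK126 in MEFs labelled *Dnmt3a* KO, and 3 lower (*Tbx2*, *Tbx4* and *Tbx5*) for 2i-MEFs against MEFs. The lower pseudocount moves genes near 0 by its construction. With WT libraries alone, 1 member (*Tbx3*) was lower in heart than in liver, and *Tbx3* joined the members higher, and *Tbx18* those lower, in MEFs than in heart, giving 3 in each direction. With the liver labelled *Dnmt3a* KO as the single liver library, a choice made after seeing the data, 4 members were higher in heart and 5 in MEFs than in liver. Heart and liver were also paired by their shared number, a choice made after seeing the data. In both pairs, 3 members (*Tbx5*, *Tbx18* and *Tbx20*) were at least 2-fold higher in heart than in liver and 0 were lower. These 3 had to pass, since the rule without pairing already covers each pair, so this check could only add members. The pairs differ in label and are not replicates of a condition. The other comparisons hold no such pairs in the labels. Depth limits *Tbx1*, *Tbx6* and *Eomes*, *Tbx20* outside heart, *Tbx5* in 2i-MEFs and liver, *Tbx4* and *Tbx15* in heart and liver, and *Tbx18* in liver, whose values can stand for a few reads at the shortest transcript.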

Other observations

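*Tbx2* and *Tbx4* lie 44473 bases apart on chromosome 11, and *Tbx3* and *Tbx5* lie 147943 bases apart on chromosome 5. *Tbx2* was at 4.62 FPKM in WT heart, where *Tbx4* was at 0.0382 FPKM, and *Tbx5* was at 14.8 FPKM there, where *Tbx3* was at 1.62 FPKM. In the heart labelled *Dnmt3a* KO, the values were 5.07 and 0.141 FPKM for *Tbx2* and *Tbx4*, and 20.4 and 5.24 FPKM for *Tbx5* and *Tbx3*. WT heart is the library with the lowest *Tbx3* value of all 10.

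*Cdkn2a*, which encodes inhibitors of the cell cycle and is known to be repressed by TBX2 and TBX3, was at 124 FPKM with DMSO and 174 FPKM with GSK126 in WT MEFs, and at 99.5 and 192 FPKM in MEFs labelled *Dnmt3a* KO. *Cdkn1a*, another such inhibitor, was at 426 and 596 FPKM in WT and at 484 and 718 FPKM in MEFs labelled *Dnmt3a* KO. All 4 differences were under 2-fold.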
